A study of Mus musculus with 6 samples.

Results

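The mRNAs of 10 acentrosomal spindle assembly factors (Aurka, Tpx2, Plk1, Tacc3, Ckap5, Cltc, Nedd1, Pcnt, Numa1 and Hook1) were followed in GV-stage fully-grown oocytes (FGOs) of WT and Lsm14b-KO mice. The 10 genes were taken by symbol from a gene expression table of 24255 genes, and each symbol matched 1 row. FGOs at the GV stage have completed growth and are arrested in prophase of the first meiosis, before any spindle is built. The comparison asked how loss of LSM14B, an oocyte RNA-binding protein, changed the stored mRNA pool. Both groups came from mice kept on a C57BL/6J background and primed with 5 IU of PMSG, a gonadotropin, 46 h before collection, and each group had 3 libraries of 20 oocytes each. The WT females carried no targeted allele. The Lsm14b-KO females were homozygous for a knockout-first insertion with a reporter. All tissues carry this insertion, so the oocytes had also grown in a mutant ovary. The paper bred Lsm14b-KO mice from homozygous males and heterozygous females, a cross that yields no WT pups. The parents of the WT females are not given, so genotype cannot be told apart from litter. The authors found LSM14B protein in oocytes only, with none in granulosa cells or the other tissues examined. The labels give no age for the females and do not say whether the libraries of a group came from different animals, so the spread between libraries may be partly technical.

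Mouse oocytes lose their centrioles during growth. After the nuclear envelope breaks down, they build the first meiotic spindle from many acentriolar microtubule organising centres (MTOCs) and from microtubules nucleated around the chromosomes. Kinases of the Aurora and Polo families ripen the MTOCs and recruit gamma-tubulin, Ran-regulated proteins such as TPX2 promote assembly near chromatin, and scaffolds, microtubule polymerases and motors shape the bipolar spindle.

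Plk1, Aurka and Ckap5 are shown with the DNA around their transcription start, because they were the members whose start regions held the same pair of short motifs. The stretches run from 60 bases upstream to 44 bases downstream of the RefSeq start (build GRCm38.p6, 5′ to 3′ on the gene's own strand). Capitals mark the CCAAT box (CCAAT) and the cell cycle homology region, or CHR (TTTGAA, or TTCAAA where it lies on the other strand). Plk1 is at chr7:122159375-122159478 (plus strand), Aurka at chr2:172370527-172370630 (minus strand) and Ckap5 at chr2:91526702-91526805 (plus strand).
Plk1: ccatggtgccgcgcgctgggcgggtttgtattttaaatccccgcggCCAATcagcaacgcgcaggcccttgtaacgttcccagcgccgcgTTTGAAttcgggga
Aurka: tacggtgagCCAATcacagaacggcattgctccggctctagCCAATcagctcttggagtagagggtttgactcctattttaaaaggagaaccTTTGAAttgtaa
Ckap5: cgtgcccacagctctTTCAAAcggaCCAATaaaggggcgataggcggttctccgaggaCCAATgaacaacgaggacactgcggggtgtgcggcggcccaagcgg

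CHR and CCAAT letters are known from promoters of genes expressed late in the cell cycle. In Plk1 the CHR began at position +31 from the start and the CCAAT box at -14. Aurka had the CHR at +33 and CCAAT boxes at -51 and -19. Ckap5 had the CHR on the other strand at -45 and CCAAT boxes at -35 and -2. RefSeq windows from 250 bases before to 50 bases after the start were at hand for 8 of the 10 genes, Tpx2 and Nedd1 being the exceptions. Searched on both strands, the CHR was in 3 of these 8 windows and in 17.9% of 32851 mouse windows. CCAAT was in 5 of the 8 (also Hook1 and Pcnt) and in 37.4% of all, and both motifs were in 3 of the 8 and in 6.95% of all. Plk1, Aurka and Ckap5 were highest in Lsm14b-KO replicates 2 and 3. The same held for Tacc3 (neither motif), Pcnt and Hook1 (CCAAT alone) and Tpx2 (no window). Whether the motifs bear on these levels was not tested. The CHR and CCAAT letters share no stretch, and a match describes the letters only.

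The expression values were FPKM as deposited: fragments per kilobase of transcript, scaled to the mapped fragments of the library. Whether they were also scaled between libraries is not known. FPKM is a level per transcript length, so levels of different genes can be set side by side. Lsm14b itself (chromosome 2, 180024987-180035465, GENCODE vM21 on GRCm38) was measured at 2.77, 3.98 and 1.72 FPKM in WT, and at 0, 0 and 0.10 FPKM in Lsm14b-KO, so the labels held. The 10 oocyte markers were all present, with summed levels of 6749 to 8568 FPKM in WT and 6612 to 8140 FPKM in Lsm14b-KO. Single markers shifted within these sums. Oosp1, the largest, was lower without overlap, at 4926 to 5800 FPKM in WT and 1846 to 4840 FPKM in Lsm14b-KO. Nobox, Ddx4 and Kit were higher without overlap, Nobox at 10.5 to 16.5 FPKM in WT and 46.3 to 98.9 FPKM in Lsm14b-KO. The others overlapped, with Gdf9 reaching 3561 FPKM and Bmp15 1482 FPKM in Lsm14b-KO replicate 2. Of 13 cumulus and granulosa cell markers, 6, among them Foxl2 and Amh, were at 0 in all libraries. The sums were 9.73 to 13.5 FPKM in WT and 6.14 to 10.1 FPKM in Lsm14b-KO. Cyp19a1 was the highest of these markers, at 11.5, 8.26 and 10.5 FPKM in WT and 5.47, 3.00 and 5.76 FPKM in Lsm14b-KO, without overlap. Fshr reached 2.07 FPKM and Inha 1.06 FPKM, both in Lsm14b-KO. The 6 red blood cell markers were at 0 throughout. Counts were not used here and absolute depth is unknown, but the spacing of the lowest values gave the Lsm14b-KO libraries 1.33 to 2.17 times the depth of WT replicate 1, against 1.03 to 1.14 times for the other WT libraries. The deposited values summed to 1141324 to 1244182 FPKM in WT, 1029728 in Lsm14b-KO replicate 1, and only 564671 and 676656 in replicates 2 and 3. Over all tested genes Lsm14b-KO replicate 1 correlated with the WT libraries at r = 0.952 to 0.954, with Lsm14b-KO replicate 2 at r = 0.917 and with Lsm14b-KO replicate 3 at r = 0.960 (across genes, which are not independent). Lsm14b-KO replicate 2 was the farthest from WT, at r = 0.867 to 0.890. The Lsm14b-KO libraries thus differed among themselves in their distance from WT, and the place of each is given for each gene.

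In WT FGOs the 10 mRNAs spanned a wide range of levels. Tacc3 stood highest at 86.1 FPKM ± 47.9 (SD, n = 3). Aurka (8.82), Nedd1 (8.04) and Cltc (7.55) came next, and the ranges of neighbours in this group overlapped. Tpx2 followed at 3.25 FPKM, clear of its neighbours, and then Plk1 (1.74) and Ckap5 (1.53), which overlapped each other. Pcnt (0.486), Hook1 (0.261) and Numa1 (0.0935) were all below 1 FPKM in WT, in that order and without overlap. In Lsm14b-KO the order of means was Tacc3, Aurka, Cltc, Tpx2, Nedd1, Ckap5, Plk1, Pcnt, Hook1 and Numa1. Nedd1 thus moved from the third to the fifth place, where its range overlapped those of Tpx2 and Ckap5. The plot of the members' FPKM by library shows every value.

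**Figure D1:**
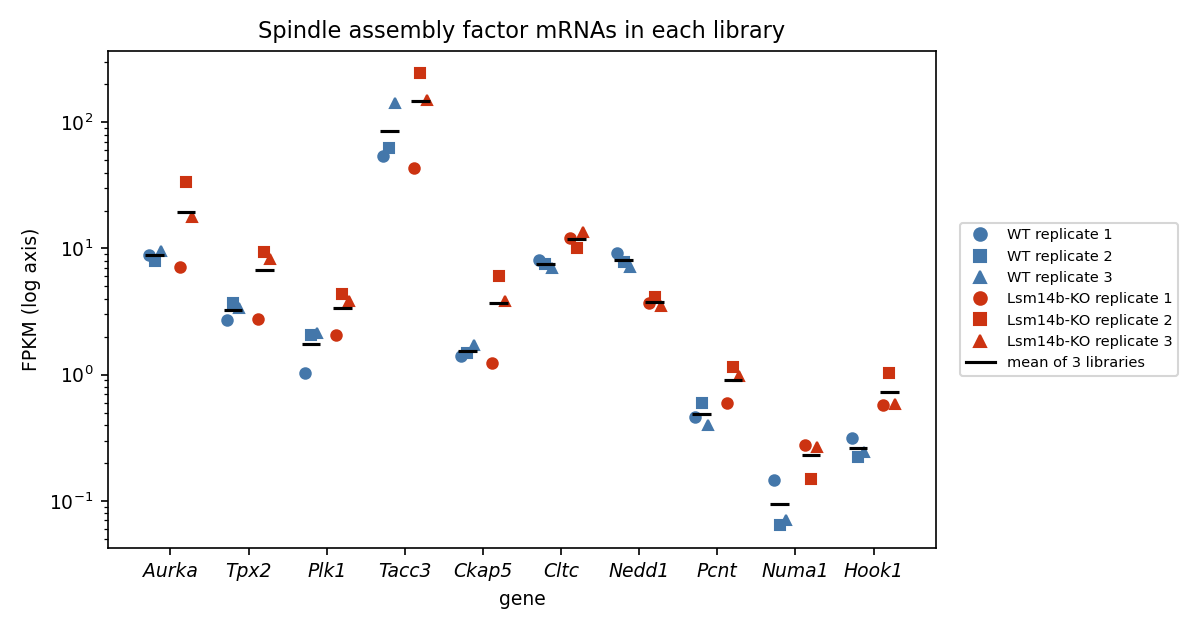
FPKM (log axis) of the 10 spindle assembly factor mRNAs in each library, with WT in blue, Lsm14b-KO in red, symbols for the replicate number and a bar at the mean of 3 libraries. Nedd1 is the gene whose Lsm14b-KO libraries (3.50 to 4.10 FPKM) all lie below WT (7.09 to 9.22 FPKM), while for Aurka, Tacc3 and Ckap5 Lsm14b-KO replicate 1 lies below the WT libraries and replicates 2 and 3 above them.

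Among the 10 genes, Nedd1 fell and no other passed the test. The test was limma on log2(FPKM + 1) over the 6398 genes that reached 1 FPKM in at least 1 library, and a call is a Benjamini-Hochberg adjusted p under 0.05. Of the 9 members tested, 1 was called, and it was lower. Over all genes tested, 21.6% were called, 6.38% as higher and 15.2% as lower, so the members' count was not above the background. The fitted difference was above 0 for 8 of the 9 members and for 2997 of the 6398 genes tested. Its median over the members was 0.59 on the log2(FPKM + 1) scale, against -0.08 over all genes tested. Groups did not overlap for 4 of the 10 (Cltc, Numa1 and Hook1 higher, Nedd1 lower), against 45.0% of the genes tested (19.1% higher and 26.0% lower). Numa1 never reached 1 FPKM and was not tested, and Pcnt and Hook1 entered the test only through Lsm14b-KO replicate 2, so the counts over tested members lean toward that library.

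Nedd1 (chromosome 10, 92684746-92722420, minus strand) encodes the adaptor that brings the gamma-tubulin ring complex to MTOCs and to spindle microtubules. Its level was 9.22, 7.82 and 7.09 FPKM in WT and 3.70, 4.10 and 3.50 FPKM in Lsm14b-KO. The groups did not overlap, with every Lsm14b-KO library below every WT library, and replicate 1 did not differ in this from the others. The mean went from 8.04 ± 1.08 to 3.77 ± 0.305 FPKM (SD, n = 3), a WT level 2.13 times that of Lsm14b-KO. On the log2(FPKM + 1) scale it fell by 0.92 (SE 0.21, 95% interval -1.40 to -0.44; adjusted p = 0.0211 in limma).

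The Nedd1 call depended on scaling and on single libraries. Rescaled so that each library summed to the same total (TPM), the values became 7.41, 6.67 and 6.21 in WT and 3.60, 7.27 and 5.18 in Lsm14b-KO, the groups overlapped, and the difference was -0.33 (adjusted p = 0.396 in limma). That rescaling also moved the median difference of all genes from -0.08 to 0.40. Relative to that median, Nedd1 stood at -0.84 with FPKM as deposited and at -0.73 with TPM. In limma the adjusted p was 0.0984 without WT replicate 1, 0.0874 without WT replicate 2, 0.0623 without WT replicate 3 and 0.0971 without Lsm14b-KO replicate 3. The Nedd1 difference stayed between -0.99 and -0.83 in these fits. They called 4.92% to 7.22% of all genes, against 21.6% with all libraries. The gene overlaps 3 annotated genes on its strand, a processed pseudogene among them, and the near-identical Gm8675 lies elsewhere, so its reads may be shared.

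The other structural MTOC gene measured, Pcnt (chromosome 10, 76351263-76442786, minus strand), encodes pericentrin, the coiled-coil scaffold that holds MTOC material together. It had 0.462, 0.597 and 0.397 FPKM in WT and 0.595, 1.15 and 0.980 FPKM in Lsm14b-KO. Lsm14b-KO replicate 1 lay just inside the WT range, and replicates 2 and 3 were above it. The difference was 0.35 (SE 0.20, 95% interval -0.12 to 0.82; adjusted p = 0.226 in limma) with FPKM as deposited and 0.09 after correction for transcript length and GC content. Pcnt has the longest transcript of the members, at 9341 nt against a median of 2259 nt over the genes tested. With the lower Nedd1 level, the Nedd1 to Pcnt ratio within a library was 20.0, 13.1 and 17.9 in WT and 6.22, 3.58 and 3.57 in Lsm14b-KO. The ratio, which does not depend on how a library is scaled, did not overlap between groups. It differed by -1.96 in log2 (exact permutation test, two-sided, p = 0.10, adjusted p = 0.40 over the 4 ratios examined). That p is the smallest that 3 against 3 libraries can give. With 1 added to both FPKM values the difference was -1.27. The ratio was not corrected for transcript length, and the Nedd1 transcript has 3534 nt against 9341 nt for Pcnt.

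Kinases and the Aurora A activator showed a different arrangement: none was called, and Lsm14b-KO replicate 1 parted from replicates 2 and 3. The paper, however, reported Plk1 and Tpx2 as upregulated in Lsm14b-KO oocytes, both by RNA-Seq and by qPCR. Its RNA-Seq comparison used Cuffdiff rather than limma, and Aurka is not among the genes it names there. Aurka (chromosome 2, 172356190-172370535, minus strand) encodes Aurora A, the kinase that drives MTOC ripening and spindle assembly. Its level was 8.96, 7.96 and 9.55 FPKM in WT and 7.17, 33.9 and 17.8 FPKM in Lsm14b-KO. The 3 WT libraries lay close together, Lsm14b-KO replicate 1 was below all of them and replicates 2 and 3 were above all of them. Relative to the WT mean the Lsm14b-KO libraries stood at 0.813, 3.84 and 2.01. The difference was 0.84 (SE 0.48, 95% interval -0.28 to 1.95; adjusted p = 0.225 in limma), which became 1.38 without replicate 1 (adjusted p = 0.00895 in limma) and 0.34 without replicate 2 (adjusted p = 0.547 in limma).

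Tpx2 (chromosome 2, 152847964-152895321, plus strand) encodes the microtubule-binding protein that the Ran pathway releases near chromosomes and that activates Aurora A. It had 2.70, 3.67 and 3.38 FPKM in WT and 2.76, 9.32 and 8.19 FPKM in Lsm14b-KO. Replicate 1 was within the WT range and replicates 2 and 3 stood at 2.87 and 2.52 times the WT mean. The difference was 0.75 (SE 0.38, 95% interval -0.13 to 1.62; adjusted p = 0.178 in limma), which became 1.20 without replicate 1 (adjusted p = 0.00403 in limma) and 0.47 without replicate 2 (adjusted p = 0.424 in limma). The Tpx2 to Aurka ratio was 0.302, 0.461 and 0.354 in WT and 0.385, 0.275 and 0.461 in Lsm14b-KO. These ratios overlapped and their log2 means differed by -0.0045 (SD 0.31 in WT and 0.38 in Lsm14b-KO; exact permutation test, two-sided, p = 0.90, adjusted 1.0).

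Plk1 (chromosome 7, 122159439-122169873, plus strand) encodes Polo-like kinase 1, which acts at spindle poles and kinetochores. Its level was 1.04, 2.04 and 2.14 FPKM in WT and 2.05, 4.33 and 3.81 FPKM in Lsm14b-KO. Here WT replicate 1 was low, Lsm14b-KO replicate 1 matched the other WT libraries, and replicates 2 and 3 were above them. The difference was 0.67 (SE 0.28, 95% interval 0.01 to 1.33), with an unadjusted p of 0.0469 and an adjusted p of 0.122 in limma. Leaving out Lsm14b-KO replicate 1 gave 0.91 (adjusted p = 0.0242 in limma). Under TPM scaling the Plk1 groups did not overlap, and the difference of 1.19 was still not called (adjusted p = 0.0726 in limma).

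Tacc3, Ckap5 and Cltc encode partners on the spindle: TACC3 binds clathrin and the microtubule polymerase ch-TOG and cross-links microtubules within bundles. Tacc3 (chromosome 5, 33658128-33678995, plus strand) had 54.5, 62.6 and 141 FPKM in WT and 43.3, 245 and 152 FPKM in Lsm14b-KO. WT replicate 3 was far above the other WT libraries and close to Lsm14b-KO replicate 3, and Lsm14b-KO replicate 1 was the lowest of the 6. The difference of 0.57 (SE 0.65, 95% interval -0.93 to 2.08; adjusted p = 0.521 in limma) had the widest interval of the members. It was 1.28 without Lsm14b-KO replicate 1 (adjusted p = 0.0499 in limma) and 0.05 without Lsm14b-KO replicate 2. Tacc3 overlaps Tmem129 on the opposite strand with shared sequence, and since the sources do not say that counting used strand, their reads cannot be told apart.

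Ckap5 (chromosome 2, 91526762-91620664, plus strand) encodes ch-TOG. It had 1.40, 1.48 and 1.71 FPKM in WT and 1.24, 6.04 and 3.81 FPKM in Lsm14b-KO. As for Aurka, replicate 1 was below the narrow WT range and the other Lsm14b-KO libraries were above it, at 3.95 and 2.49 times the WT mean. The difference was 0.74 (SE 0.39, 95% interval -0.15 to 1.64; adjusted p = 0.184 in limma), which became 1.20 without replicate 1 (adjusted p = 0.00633 in limma) and 0.38 without replicate 2 (adjusted p = 0.467 in limma). The Tacc3 to Ckap5 ratio was 38.9, 42.4 and 82.4 in WT and 35.0, 40.5 and 39.8 in Lsm14b-KO, a log2 difference of -0.42 (exact permutation test, two-sided, p = 0.30, adjusted 0.60). The ratio was 35.0 to 42.4 in all libraries but WT replicate 3, which was set aside only after its value was seen. With all libraries the SD of the log2 ratio was 0.59 in WT and 0.12 in Lsm14b-KO, so no steady ratio was shown. Each mRNA alone differed several-fold between libraries.

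Cltc (chromosome 11, 86694351-86757565, minus strand), the clathrin heavy chain gene, was the member closest to a call as higher. It had 8.14, 7.56 and 6.96 FPKM in WT and 12.2, 10.1 and 13.6 FPKM in Lsm14b-KO. All 3 Lsm14b-KO libraries were above all WT libraries, at 1.33 to 1.80 times the WT mean, and replicate 1 was not set apart. The difference was 0.59 (SE 0.23, 95% interval 0.07 to 1.12; unadjusted p = 0.0316, adjusted p = 0.0956 in limma). It was 1.23 under TPM scaling (adjusted p = 0.0258), 0.86 after quantile normalization (adjusted p = 0.0382) and 0.40 after correction for length and GC content (adjusted p = 0.229), all in limma. The deposited locus of Cltc is merged with those of 15 other genes. The Tacc3 to Cltc ratio ranged from 6.70 to 20.3 in WT and from 3.54 to 24.3 in Lsm14b-KO and its log2 means differed by -0.077 (SD 0.85 and 1.40; exact permutation test, two-sided, p = 1.0, adjusted 1.0).

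Numa1 and Hook1 belong to the dynein side of the spindle and were the scarcest members. NUMA1 works with dynein to gather microtubule minus ends at spindle poles. Numa1 (chromosome 7, 101934111-102014964, plus strand) had 0.146, 0.0640 and 0.0709 FPKM in WT and 0.275, 0.150 and 0.269 FPKM in Lsm14b-KO. The groups did not overlap, by a narrow margin between WT replicate 1 and Lsm14b-KO replicate 2. At this level only the order of the libraries is given.

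HOOK1 is a coiled-coil adaptor that links dynein to its cargo. Hook1 (chromosome 4, 95967240-96025413, plus strand) had 0.315, 0.221 and 0.245 FPKM in WT and 0.570, 1.04 and 0.582 FPKM in Lsm14b-KO. Every Lsm14b-KO library was above every WT library, replicate 1 included at 2.19 times the WT mean. Hook1 overlaps 9530080O11Rik on the opposite strand with shared sequence, so their reads cannot be told apart. The difference was 0.45 (SE 0.20, 95% interval -0.02 to 0.91; adjusted p = 0.140 in limma). The log2(FPKM + 1) scale compresses changes at such levels, and with a pseudocount of 0.1 the difference was 1.16.

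**Figure D2:**
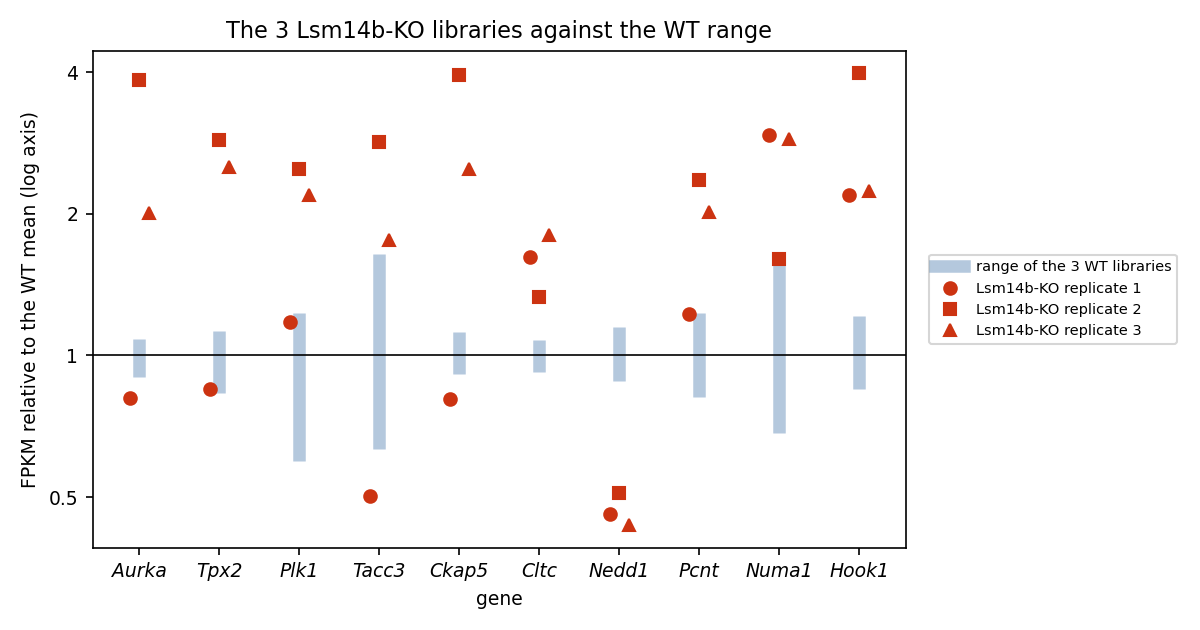
FPKM of each Lsm14b-KO library divided by the WT mean (log axis) for the 10 genes, with the range of the 3 WT libraries as a blue bar. Replicate 1 (circles) is at or below the top of the WT range for Aurka, Tpx2, Plk1, Tacc3, Ckap5 and Pcnt, where replicates 2 and 3 are above it, and sits with the other Lsm14b-KO libraries for Cltc, Nedd1, Numa1 and Hook1.

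Set side by side, the members fell into 3 arrangements, described after their values were seen. For 6 of the 10 (Aurka, Tpx2, Plk1, Tacc3, Ckap5 and Pcnt), Lsm14b-KO replicate 1 was not above the WT range and replicates 2 and 3 were, with replicate 2 the highest. The same arrangement was found for 9.32% of all genes tested. Among the 10 oocyte markers, Zp1, Zp2, Zp3 and Bmp15 also showed it and the other markers did not, so it was not particular to spindle genes. The arrangement was taken from the members' own values, and Pcnt was tested only through replicate 2. Setting these shares side by side is therefore no test. For Cltc, Numa1 and Hook1 all 3 Lsm14b-KO libraries were above WT, and for Nedd1 all 3 were below. Without Lsm14b-KO replicate 1, 6 of the 9 tested members were called, 5 of them as higher (Plk1, Aurka, Tpx2, Tacc3 and Ckap5) and Nedd1 as lower. The same fit called 45.3% of all genes tested, 18.0% as higher, so that the larger count goes with a larger background. Replicates 2 and 3 are also the libraries with the low FPKM sums and the greater depth, and the part of either in the higher values was not tested.

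The fitted differences under 3 scalings are plotted with their intervals. Under TPM scaling the 8 members other than Nedd1 moved up to between 0.69 and 1.49. Cltc was then the member called, where 20.6% of all genes were called and 13.0% as higher. Relative to the shifted median of all genes, Aurka stood at 0.91 with FPKM as deposited and 1.09 with TPM, Cltc at 0.67 and 0.83, and Hook1 at 0.52 and 0.33. Over all genes the difference also went with transcript length: with the genes split into 3 equal classes by length, its median was -0.51 for the shortest (up to 1612 nt), about 0 for the middle class and 0.27 for the longest (from 3099 nt). Tpx2, Ckap5, Cltc, Numa1, Pcnt, Nedd1 and Hook1 have transcripts of 3534 to 9341 nt and are in the longest class, and Plk1 (2199 nt), Aurka (1905 nt) and Tacc3 (2669 nt) are in the middle class. Correction for length and GC content lowered the difference of Tpx2 to 0.56, of Ckap5 to 0.54 and of Cltc to 0.40, while Aurka stood at 0.96, Plk1 at 0.69 and Nedd1 at -0.85 (adjusted p = 0.0202 in limma). Relative to the median of all genes, Pcnt then stood at -0.01.

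**Figure D3:**
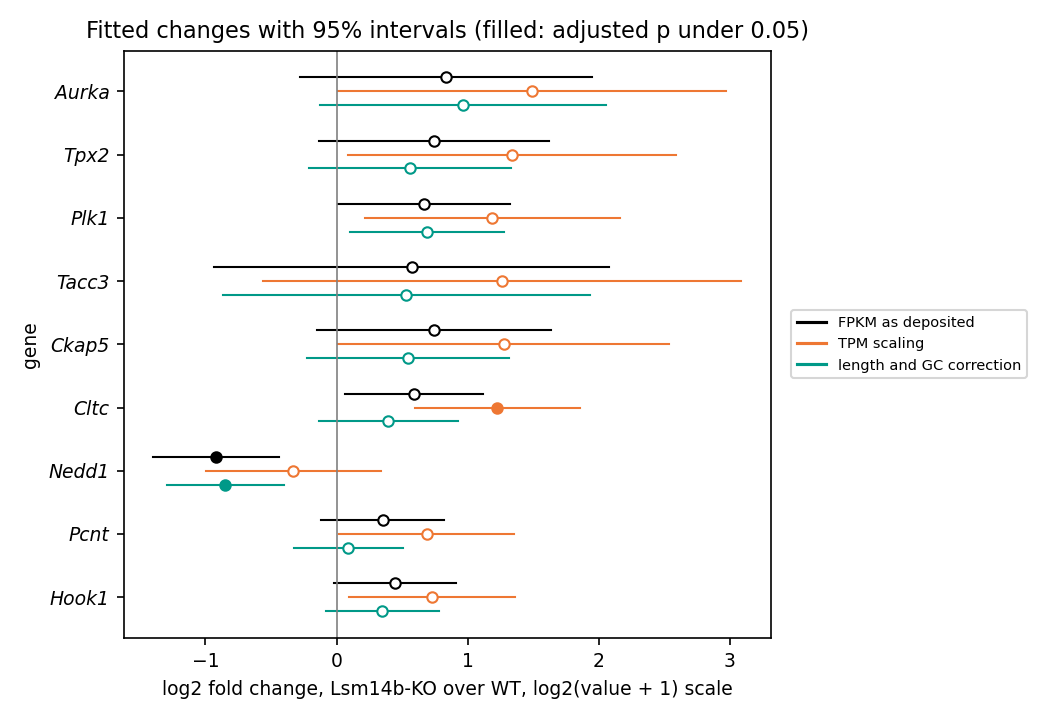
Fitted log2 difference, Lsm14b-KO over WT on the log2(value + 1) scale, with its 95% interval for the 9 tested members under FPKM as deposited (black), TPM scaling (orange) and correction for length and GC content (green); filled points have an adjusted p under 0.05 in limma. Nedd1 is filled at -0.92 and -0.85 and open at -0.33, and Cltc is filled at 1.23 alone.

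Other genes of acentrosomal spindle assembly were read from a list of 89, of which 54 were tested and 2 (Ajuba and Plk5) were at 0 in all libraries. Of the 54, 10 were called, 6 as higher and 4 as lower, with a median difference of 0.37. Over all genes tested the called share was 21.6% (6.38% higher and 15.2% lower) and the median -0.08. The called genes comprised 1 of 8 tested kinases and cofactors (Gsg2, lower), 3 of 12 genes of microtubule nucleation (Haus8 higher, Mzt1 and Haus3 lower), 1 of 9 of the Ran pathway (Ran, higher), 4 of 12 motors and adaptors (Kif2a, Kif4, Nde1 and Myo10, all higher) and 1 of 10 microtubule-binding proteins (Clasp2, lower). None of 3 tested paralogues of members was called. Nde1, Haus6, Kpnb1, Kansl1 and Kif20a entered the test only through Lsm14b-KO libraries, and Clasp2 and Tubgcp4 only through WT libraries. The filter thus favoured the direction in which Nde1 and Clasp2 were called, and it also bears on the median. The arrangement with replicate 1 apart was found for 12 of the 54 tested genes (22.2%), including Plk4, Prc1, Kif18a and Clta. Over all genes tested the share was 9.32%. The arrangement came from the members' values, and Kansl1, which also had it, was tested only through Lsm14b-KO replicate 2. These shares are therefore descriptive.

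The 3 nucleation genes encode subunits of complexes that NEDD1 joins. Mzt1, a small subunit of the gamma-tubulin ring complex, had 15.7, 14.4 and 11.2 FPKM in WT and 4.38, 5.80 and 6.0 FPKM in Lsm14b-KO, and fell by 1.21 (adjusted p = 0.0144 in limma). Haus3 and Haus8 encode subunits of augmin, the complex that NEDD1 joins to gamma-tubulin for branching nucleation. Haus3 had 1417, 1234 and 1133 FPKM in WT and 783, 574 and 549 FPKM in Lsm14b-KO, and fell by 1.00 (adjusted p = 0.0442 in limma). Haus8 had 2.69, 3.29 and 5.55 FPKM in WT and 8.46, 11.5 and 10.1 FPKM in Lsm14b-KO, and rose by 1.22 (adjusted p = 0.0207 in limma). With FPKM as deposited the groups did not overlap for any of the 3, whereas under TPM scaling those of Mzt1 and Haus3 did. The falls of Haus3 and Mzt1 were not called after correction for length and GC content (-0.42, adjusted p = 0.139, and -0.71, adjusted p = 0.120, in limma), nor was that of Haus3 after quantile normalization (-0.25, adjusted p = 0.407 in limma), while Haus8 stayed called in both. Haus3 overlaps annotated genes on both strands, and Mzt1 has a near-identical copy, so their reads may be shared.

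Among motors, Kif4, a chromosome-bound kinesin, had 7.82, 8.20 and 8.70 FPKM in WT and 14.8, 19.7 and 15.6 FPKM in Lsm14b-KO, and rose by 0.93 (adjusted p = 0.0292 in limma). Kif2a, a microtubule-depolymerising kinesin of spindle poles, had 3.49, 3.13 and 4.24 FPKM against 6.58, 30.8 and 12.8 FPKM, and rose by 1.70 (adjusted p = 0.0402 in limma). Nde1, a dynein regulator, went from 0.507 ± 0.391 to 1.88 ± 0.0737 FPKM and rose by 0.96 (adjusted p = 0.0258 in limma). Myo10, a myosin that binds microtubules and actin, went from 1.18 ± 0.180 to 3.84 ± 1.84 FPKM and rose by 1.07 (adjusted p = 0.0441 in limma). All 3 Lsm14b-KO libraries were above WT for each of the 4, Kif2a and Myo10 having replicate 1 as the lowest of the 3.

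Ran, the GTPase that releases TPX2 and other spindle factors near chromosomes, had 17.0, 18.3 and 24.0 FPKM in WT and 62.4, 38.0 and 51.5 FPKM in Lsm14b-KO, and rose by 1.30 (adjusted p = 0.0220 in limma). Here replicate 1 was the highest library. Gsg2, which encodes the histone kinase haspin, went from 5.00 ± 1.43 to 1.94 ± 0.409 FPKM and fell by 1.01 (adjusted p = 0.0273 in limma). Clasp2, a stabiliser of microtubule plus ends, went from 1.65 ± 0.0524 to 0.722 ± 0.0846 FPKM and fell by 0.62 (adjusted p = 0.0418 in limma). Under TPM scaling the 6 rises stayed called and the 4 falls were not, with differences of -0.58 for Mzt1, -0.50 for Gsg2, -0.31 for Haus3 and -0.26 for Clasp2. Ran and Kif2a each have a near-identical copy elsewhere, and Kif4 and Kif2a share sequence with overlapping genes (Pdzd11 and Dimt1).

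**Figure D4:**
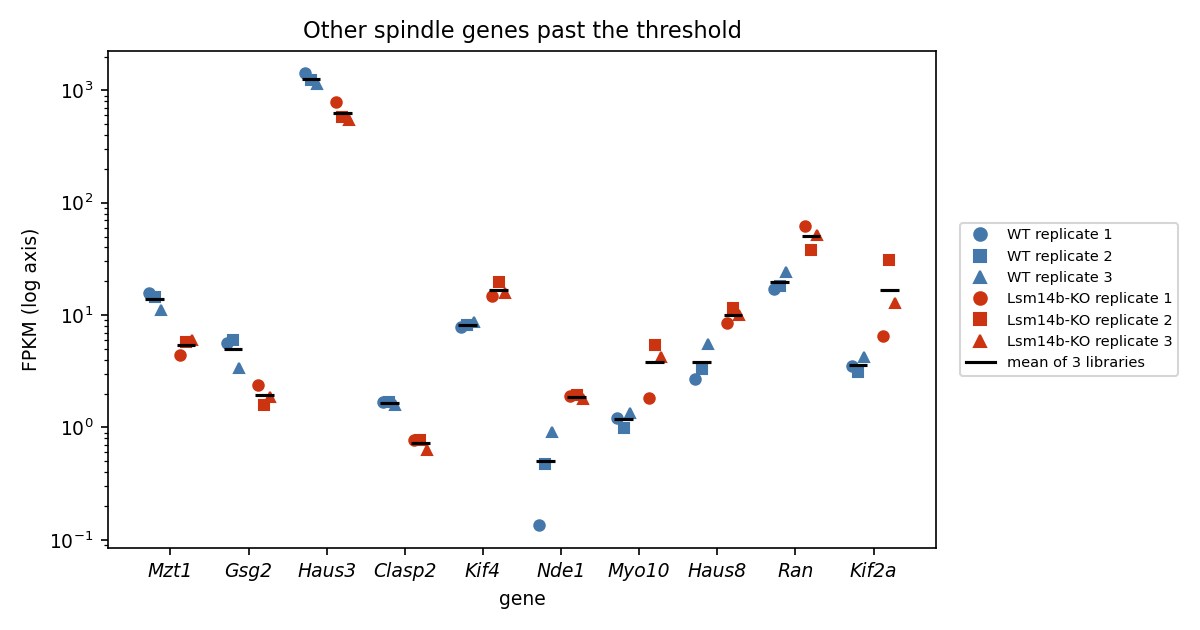
FPKM (log axis) in each library of the 10 other spindle genes past the threshold, drawn as in the plot of the members, with a bar at the mean of 3 libraries. The groups do not overlap for any of the 10; the 4 genes on the left (Mzt1, Gsg2, Haus3 and Clasp2) fell and the others rose.

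The members' paralogues ranged from absent to abundant in FGOs. Plk4, the kinase of centriole duplication, had 2.51, 1.58 and 1.60 FPKM in WT and 1.36, 10.6 and 4.44 FPKM in Lsm14b-KO, with Lsm14b-KO replicate 1 lowest and replicates 2 and 3 highest as for Aurka (difference 0.89, adjusted p = 0.225 in limma). Plk2 and Plk3 were above 0 in few libraries and stayed at or below 0.297 FPKM. Aurkc, the germ cell Aurora kinase, was the most abundant of the Aurora kinases at 65.6, 65.8 and 75.5 FPKM in WT and 65.7, 57.0 and 69.7 FPKM in Lsm14b-KO (difference -0.11, adjusted p = 0.778 in limma), so that its mRNA outnumbered Aurka per length in every library. Aurkb stayed at 0.459 to 0.781 FPKM and was not tested. Clta, a clathrin light chain gene, had 3.77, 3.54 and 3.61 FPKM in WT and 2.80, 16.7 and 10.7 FPKM in Lsm14b-KO (difference 0.99, adjusted p = 0.178 in limma). Cltb, the other light chain gene, had 8.30, 9.08 and 9.68 FPKM against 5.48, 6.93 and 5.91 FPKM and did not overlap between groups, although the difference of -0.50 was not called (adjusted p = 0.124 in limma). Under TPM scaling the Cltb groups overlapped, at 6.67, 7.75 and 8.48 in WT and 5.32, 12.3 and 8.73 in Lsm14b-KO. Tacc2 was at 1.38 to 3.58 FPKM (adjusted p = 0.285 in limma), and Tacc1, Hook2 and Hook3 stayed below 1 FPKM in all libraries.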

How the data were processed

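RNA of GV-stage FGOs from 3 WT and 3 Lsm14b-KO libraries was amplified with the Smart-seq2 procedure, and paired reads of 150 bp were sequenced. Per the labels and methods, the authors aligned the reads to mm10 with TopHat2 (2.0.13) and computed the deposited FPKM values with Cufflinks (2.2.1). Cuffnorm and Cuffdiff are also named among the tools. The annotation is not given in the sources used here, 2 library kits are named, and strandedness is not stated. The deposited table also holds 3 columns of the authors' own comparison (fold change, p-value and q-value), which were not used.

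The values entered the fit as log2(FPKM + 1). A gene was tested if any library reached 1 FPKM (6398 of 24255; 9930 were at 0 in all). These genes were fitted with limma 3.58.1 in R 4.3.3 (eBayes with intensity trend, genotype only), two-sided, with Benjamini-Hochberg adjustment over all of them. Ratios of members within a library were compared by exact permutation (scipy 1.17.1). Alternatives were other pseudocounts, filters and scalings, a correction for length and GC content (loess; values for 98.8% of tested genes), no intensity trend, a replicate block and leaving out each library; the fit was tested on simulated data. Near-identical copies (alignments of 200 nt or longer with 95% identity) were sought with blastn 2.17.0 in GENCODE vM21 transcripts, and promoter windows came from RefSeq. Groups and replicate numbers came from the sample titles, and p-values measure the spread between these libraries.

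The members and the lists were chosen with earlier results of these data known. Named were all members, Lsm14b, every called gene of the pathway list and the paralogues of members; other genes named were chosen after their values were seen. Theca and stroma markers (4 of 6 at 0 in all) summed to at most 0.397 FPKM, and macrophage markers (2 of 4 at 0 in all) to at most 0.733 FPKM.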

Additional observations from a re-analysis of the deposited data

How the results depend on the processing

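No member changed direction in 151 refits of the 9 tested members, and 15 of these gained and 6 lost a call. The count of members called was 1 with all libraries, 2 after quantile normalization (Cltc and Nedd1) and 1 under TPM scaling (Cltc in place of Nedd1). These fits called 21.6%, 19.9% and 20.6% of all genes. Leaving out single libraries gave 0 to 6 members, with 0 without WT replicate 1, 2 or 3 or Lsm14b-KO replicate 3. The count was 1 when Lsm14b-KO replicate 2 was left out and 6 when Lsm14b-KO replicate 1 was. The share of all genes called moved too. It was 6.19%, 6.21% and 7.22% without WT replicates 1, 2 and 3. Without Lsm14b-KO replicates 1, 2 and 3 it was 45.3%, 13.5% and 4.92%. The count of pathway genes called was 10 with all libraries and 6 under TPM scaling. Without a filter on low values 3 were called (Mzt1 and Ran of the 10, and Kif11), where 5.03% of 14325 genes were called. The pathway count ranged from 0 to 28 over the same omissions. It was 0 without WT replicate 1 or 2 or Lsm14b-KO replicate 3, and 4 without WT replicate 3. It was 2 when Lsm14b-KO replicate 2 was left out and 28 when Lsm14b-KO replicate 1 was. An alternative chosen after seeing the data, TPM scaling without Lsm14b-KO replicate 1, called 8 members (all but Nedd1, at -0.12) and 39 pathway genes, where 57.2% of all genes were called. Of the calls over all genes, 408 of 1383 were higher as deposited and 833 of 1319 under TPM scaling. The cause of these differences was not tested. Over the omissions the Tpx2 to Aurka log2 ratio difference ran from -0.17 to 0.20 and the Tacc3 to Cltc difference from -0.73 to 0.66, both changing sign.

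Whether same-numbered libraries were paired is not known. Deviations of same-numbered libraries from their group means correlated at 0.19, -0.128 and 0.018 across genes, and those of unlike-numbered libraries at -0.275 to 0.306. These values cannot settle it, because deviations within a group are not independent. With a replicate block 1 member (Nedd1, adjusted p = 0.0424 in limma) and 7 pathway genes were called, where 19.4% of all genes were called. Absolute depth is unknown, so the counting error behind the low values of Numa1, Hook1 and Pcnt cannot be given.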

Other observations

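Kif11, which encodes the kinesin that pushes spindle poles apart, was singled out after its values were seen. It stayed below 1 FPKM and outside the test in the report, at 0.165, 0.0967 and 0.161 FPKM in WT and 0.664, 0.679 and 0.711 FPKM in Lsm14b-KO. The groups did not overlap and the Lsm14b-KO libraries, replicate 1 included, lay close together. With no filter on low values the difference was 0.56 on the log2(FPKM + 1) scale (adjusted p = 0.0439 in limma).

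Katna1, which encodes the severing subunit of katanin and was also chosen after its values were seen, placed the Lsm14b-KO libraries against WT as Aurka did. It had 0.834, 1.31 and 1.93 FPKM in WT and 0.749, 10.2 and 10.1 FPKM in Lsm14b-KO, so that Lsm14b-KO replicate 1 was the lowest of the 6 libraries and the other Lsm14b-KO libraries stood at 7.49 and 7.47 times the WT mean.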
